A study of Mus musculus with 2 samples.

Results

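The BCL2 family decides whether a cell dies through its mitochondria. Peaks of FLAG-tagged HLF were described here at 10 of its genes in mouse blood progenitors. HLF, or hepatic leukemia factor, belongs to the PAR bZIP class of DNA-binding regulators. The 10 genes were Bcl2, Bcl2l1, Mcl1, Bmf, Bcl2l11, Bid, Bad, Bbc3, Pmaip1 and Bax. A peak was counted for a gene when its centre lay inside the gene or within 100 kb of either gene end. By this rule 14 of the 3153 peaks of the list were found, at 8 of the 10 genes. No measured value chose the genes, but they were chosen with earlier results of these data known, so their counts are descriptions without a test.

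The FLAG-HLF library came from wild-type mouse LSK cells, the stem and progenitor fraction without lineage markers and with Sca-1 and c-Kit, which received a pMX retrovirus carrying FLAG-tagged Hlf and GFP. The other library came from wild-type LSK cells with a pMX-GFP control virus. Both were kept for 5 days in culture with the cytokines IL-3, IL-7, SCF and Flt3 ligand, and both were precipitated with an anti-FLAG antibody. With 1 library per arm there is no spread between replicates, and the GFP library was not analysed here. The FLAG signal comes from a virus-driven protein, not from the cells' own HLF. The list gives positions in mm10 (GRCm38) with 1 width of 400 bases and no height or significance, so read depth is unknown. It measures no expression, so neither the LSK markers nor the RNA of the 10 genes could be checked.

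In the intrinsic pathway, BCL2, BCL-XL (Bcl2l1) and MCL1 hold the mitochondrial outer membrane intact. BH3-only proteins sense damage or loss of growth signals and neutralise these guardians or activate the effectors, and the effectors BAX and BAK then open pores that release cytochrome c. Blood stem and progenitor cells depend on MCL1 for survival. In the worm Caenorhabditis elegans the PAR bZIP protein CES-2, a relative of HLF, acts in a cell death decision upstream of the BH3-only gene egl-1.

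Peaks lay around most of the 10 genes. A peak inside or within 100 kb was present at 8 of 10 members (80%), against 36.3% of all 21900 coding genes. By role these were 3 of 3 anti-apoptotic genes, 4 of 6 BH3-only genes and the 1 effector, Bax. Bmf alone held a peak within its bounds. This was 1 of 10 members, near the 6.82% of all coding genes. The median distance to the nearest peak was 42.3 kb for the members and 180.6 kb for the 21631 coding genes with a peak on their chromosome. Gene-rich windows held peaks more often. A peak was present for 20.8% of coding genes with 0 to 1 other coding genes in the window, for 34.9% with 2 to 5, for 42.1% with 6 to 10 and for 48.01% with 11 or more. The members with a peak in these classes were 1 of 2, 2 of 3, 3 of 3 and 2 of 2.

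**Figure D1:**
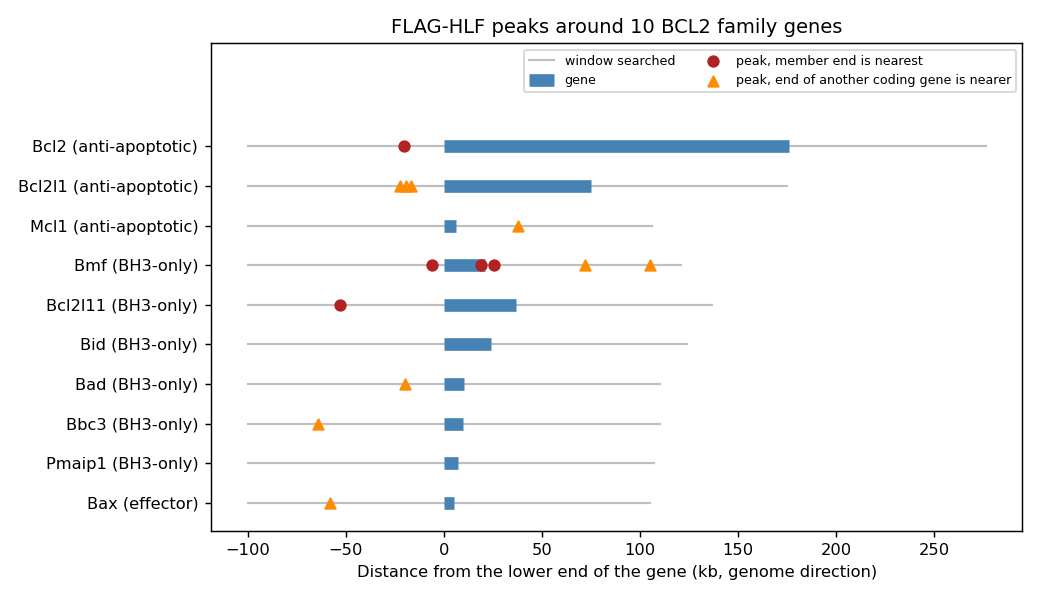
Position of the 14 peaks (points) along the windows of the 10 genes, in kb from the lower end of each gene, in genome direction. Blue bars are genes, grey lines the windows searched, and orange triangles mark the 9 peaks whose nearest coding gene end belongs to another gene; the only peak on a blue bar is that of Bmf.

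Most of these peaks were closer to another gene. Of the 14 peaks, 5 had a member as the coding gene with the nearest end, namely 3 at Bmf, 1 at Bcl2 and 1 at Bcl2l11. These were 3 of 10 members, against 10.8% of coding genes given a peak in this way. The other 9 peaks all lay within 10 kb of an end of another coding gene, 3 of them within 1 kb. The share of all 3153 peaks at these distances is not given here, so these counts only describe the 9 peaks. Bcl2l1, Mcl1, Bad, Bbc3 and Bax had only peaks of this second kind. This is also the usual case over all coding genes. A peak inside or within 100 kb was present at 7947 of them, and only 2365 were given one by nearest end. No peak was counted for more than 1 member. The farthest counted peak was 84.04 kb beyond Bmf, and the closest one left out was 153.1 kb beyond the same gene.

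Bmf, whose BH3-only protein is held at the cytoskeleton until released by stress such as loss of attachment, had the most peaks of the 10 genes. It lies on chromosome 2 from 118528757 to 118549686, on the minus strand, and had 5 peaks in a window of 220.9 kb. Of coding genes, 0.269% had 5 or more peaks in the window and 0.365% were the nearest gene of 3 or more. The window held only 3 other coding genes. The peak inside Bmf (118547445 to 118547844) was 2.04 kb from the upper gene end, but its centre was 45 bases upstream of 1 of the 3 starts that RefSeq lists for the gene. Another peak (118554312 to 118554711) was 4.83 kb upstream of the uppermost start, in the stretch between Bmf and Bub1b. The third (118522255 to 118522654) was 6.30 kb downstream of the gene, 42.8 kb from Srp14 on the other side. These 3 peaks spanned 32.1 kb. The other 2 lay inside Bub1b, which encodes a kinase of the spindle checkpoint, 50.8 and 84.04 kb upstream of Bmf. They were 2.31 and 7.87 kb from the nearer end of Bub1b.

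**Figure D2:**
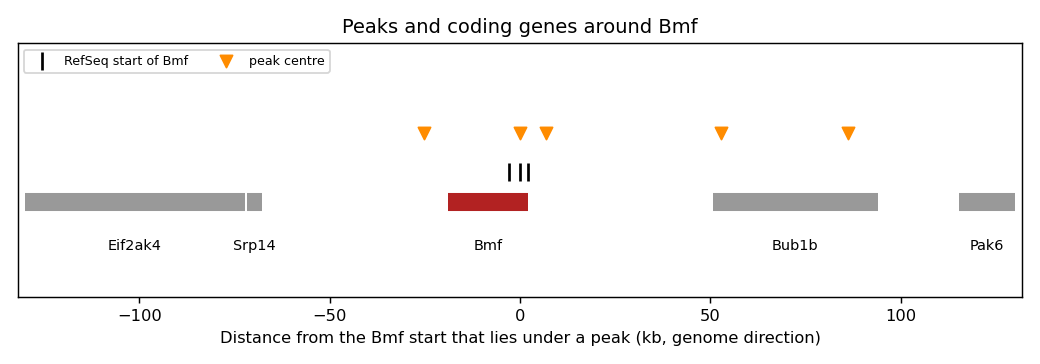
Coding genes (bars), the 3 RefSeq starts of Bmf (ticks) and the 5 peak centres (triangles) around Bmf, in kb from the start that lies under a peak, in genome direction. The bars of Eif2ak4 and Pak6 are shown only up to the plot's edge; 3 peaks lie between -25.1 and 6.91 kb, and 2 lie over Bub1b.

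At 3 or more peaks within 10 kb of the gene or inside it, Bmf was 1 of 66 coding genes (0.301%). It was also the 1 of 10 members (10%) with any peak within 10 kb, near the 11.4% of coding genes.

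The peak at the inner start of Bmf is the only one of the 14 that touched an annotated promoter window of a member, so its sequence is shown. RefSeq promoter windows run from 250 bases before to 50 after a start, and 9 members had 17 of them. The Bmf peak shared 295 of the 300 bases of its window, and 166 of 17492 coding genes with such a window (0.949%) shared at least 1 base with a peak. The part of the peak before the start is printed here from 5′ to 3′ on the minus strand (GRCm38.p6, chr2:118547600-118547844). Capitals mark, in order, a TTACGT match and a match to the C/EBP pattern TTGCNNAA, read on the other strand.

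Bmf: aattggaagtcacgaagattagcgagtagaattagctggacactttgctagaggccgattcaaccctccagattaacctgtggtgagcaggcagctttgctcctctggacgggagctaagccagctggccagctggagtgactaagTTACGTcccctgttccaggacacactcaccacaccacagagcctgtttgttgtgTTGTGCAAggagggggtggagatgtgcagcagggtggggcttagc

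The TTACGT match begins 99 bases before the start and the C/EBP match 45 bases before it. TTACGT is the first part of the full palindrome TTACGTAA of the PAR bZIP factors and was searched after this sequence had been seen. The full palindrome and its other form TTATGTAA were not in these letters. C/EBP factors are bZIP proteins whose site resembles that of the PAR bZIP factors.

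Bcl2l11 encodes BIM, the BH3-only protein that limits the life of blood cells after cytokine withdrawal. It lies on chromosome 2 from 128126038 to 128162547, on the plus strand, and had 1 peak (128072820 to 128073219) lying 53.02 kb upstream of its first start. That peak lay inside the neighbouring gene Acoxl, an acyl-CoA oxidase relative, whose ends were farther away. Acoxl was the only other coding gene in the window. The pseudogene Gm23101 had an end closer than Bcl2l11, at 16.9 kb.

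Bad encodes a BH3-only protein that AKT signalling inactivates by phosphorylation. It lies on chromosome 19 from 6941861 to 6951905 and had 1 peak, 19.8 kb upstream (6921902 to 6922301). The centre of this peak was 0.053 kb outside Esrra, which encodes the oestrogen-related receptor alpha, and 0.325 kb from Catsperz on the other side. The Bad window held 18 other coding genes, the most of the 10 members. The peak shared 157 bases with the Esrra promoter window, and none of the 6 patterns searched here was in the shared bases.

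Bbc3 encodes PUMA, a BH3-only protein induced by p53. It lies on chromosome 7 from 16308398 to 16318334 and had 1 peak, 64.1 kb upstream (16244077 to 16244476). Its centre lay 0.122 kb outside C5ar2, a receptor for the complement fragment C5a, and 2.47 kb from C5ar1, the other C5a receptor gene. The peak covered the whole promoter window of 1 C5ar2 start. Its 250 bases before that start are shown because they hold the C/EBP pattern at 2 places, in capitals (minus strand, GRCm38.p6, chr7:16244155-16244404).

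C5ar2: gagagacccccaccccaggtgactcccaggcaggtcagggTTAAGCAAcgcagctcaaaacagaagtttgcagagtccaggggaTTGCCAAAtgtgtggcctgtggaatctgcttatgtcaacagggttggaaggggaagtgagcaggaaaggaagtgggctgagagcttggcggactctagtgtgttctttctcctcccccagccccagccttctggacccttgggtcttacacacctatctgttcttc

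The match nearer the 5′ end, which begins 210 bases before the C5ar2 start, is read on the other strand. The one beginning 166 bases before the start is read as printed.

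Bid and Pmaip1 were the members without a peak in the window. Bid encodes the BH3-only protein that caspase-8 cleaves to link death receptors to mitochondria. It lies on chromosome 6 from 120893119 to 120917062, and its nearest peak was 263.1 kb away. Its window of 223.9 kb held 4 other coding genes, among them its family relative Bcl2l13. Pmaip1, which encodes NOXA, an antagonist of MCL1, lies on chromosome 18 from 66458604 to 66465558. Its nearest peak was 822.5 kb away, the longest distance of the 10 members, and no other coding gene reached its window. The list has no read counts, so 0 peaks cannot be told apart from binding under the authors' threshold.

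Among the anti-apoptotic genes, Bcl2 lies on chromosome 1 from 106538176 to 106714290 and is the longest of the 10 genes at 176.1 kb. None of its length held a peak. Its 1 peak (106517599 to 106517998) lay 20.4 kb downstream of the gene and 196.5 kb from its start. The next coding gene on the far side, Phlpp1, was 123.6 kb from the peak. The long noncoding RNA gene Gm41928 had an end closer, at 5.84 kb.

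Bcl2l1, the gene of BCL-XL, lies on chromosome 2 from 152758732 to 152833803 and had 3 peaks, all downstream of it, at 16.9, 19.1 and 22.5 kb. They spanned 5.54 kb. All 3 had Id1, which encodes an inhibitor of bHLH factors, as the nearest coding gene, at 4.39, 2.19 and 0.009 kb from its ends. The peak at 22.5 kb lay inside Id1. For the peak at 16.9 kb, Gm14162, not a coding gene, had an end closer, at 3.75 kb. Cox4i2 lay between these peaks and Bcl2l1. From the nearest of the 3 RefSeq starts of Bcl2l1 the peaks were 86.7 to 92.2 kb away.

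Mcl1 lies on chromosome 3 from 95656944 to 95663179 and had 1 peak (95694488 to 95694887), 31.5 kb downstream. Its nearest coding gene was Adamtsl4, at 6.76 kb, and on the other side Ecm1 was 39.5 kb away.

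Bax encodes the pore-forming effector and lies on chromosome 7 from 45461695 to 45466903. It had 1 peak (45403540 to 45403939), 57.96 kb downstream of the gene. The nearest gene was the potassium channel gene Kcna7, at 2.22 kb, with Snrnp70 at 7.997 kb on the other side. The Bax window held 15 other coding genes.

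**Figure D3:**
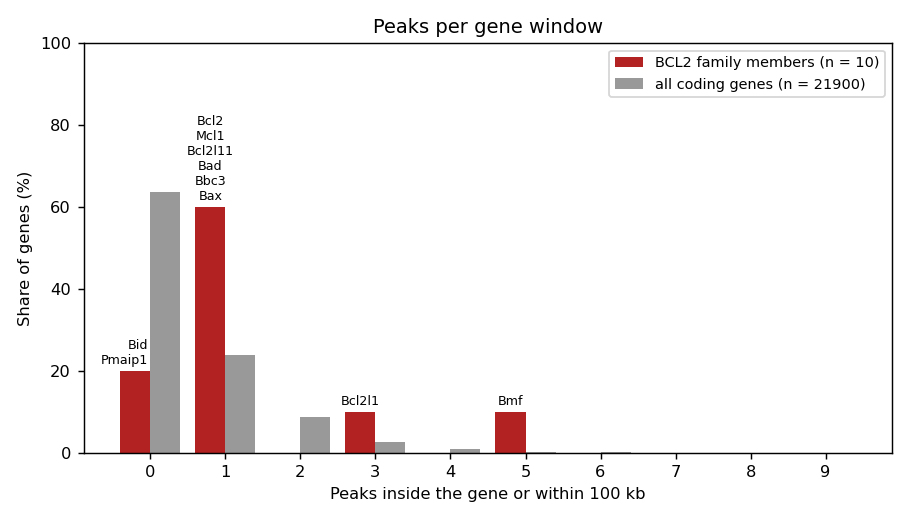
Share of genes (%) by the number of peaks inside the gene or within 100 kb, for the 10 members (red, named) and all 21900 coding genes (grey). Bid and Pmaip1 stand at 0 peaks, 6 members at 1, Bcl2l1 at 3 and Bmf at 5, while 63.7% of coding genes stand at 0 and 23.9% at 1.

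The promoter windows of the members were also searched for 6 patterns on both strands. The PAR bZIP forms TTACGTAA and TTATGTAA were in 0 of the 17 windows, and in 0.119% and 0.938% of all 32851 windows of the table. The C/EBP pattern TTGCNNAA was in 3 windows, 2 of Bmf and 1 of Bid, and in 10.8% of all. The FOXO pattern TGTTTAC was in 1 window each of Bcl2l11 and Bbc3, and in 3.65% of all. The E-box CACGTG was in 1 window each of Bbc3 and Bax, and in 7.15% of all. TTACGT, which every TTACGTAA contains, was in the Bmf window at the peak and in 2.72% of all. Over the whole list, 227 windows shared a base with a peak. Of these, 30.4% held TTGCNNAA, 6.17% held TTATGTAA, 7.49% held TTACGT and 0.441%, which is 1 window, held TTACGTAA. The E-box CACGTG was in 11.01% of the windows at a peak, also above its share of all windows. The FOXO pattern TGTTTAC was in 2.64% of them, below its share of all windows. A match is a string of letters and not a measured binding site.

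Another 54 genes of the pathway, listed from general knowledge, were read in the same way. Of these, 29 (53.7%) had a peak inside or within 100 kb, beside the 36.3% of coding genes given above, and 7 (13.0%) had a peak inside, beside 6.82%. By nearest gene end, 7 (13.0%) were given a peak, beside 10.8%. The median distance to the nearest peak was 92.1 kb. A peak in the window was present at 5 of 8 BH3-only genes and relatives and 5 of 8 apoptosome and release genes. The same held for 5 of 8 genes listed as inhibitors, 4 of 6 anti-apoptotic genes and 4 of 8 caspases. Of the rest, 6 of 14 regulators had a peak in the window, and neither of the effectors Bak1 and Bok did.

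Among these genes, Birc2 and Bcl2l15 (2 of 54) had a peak on a promoter window, beside 0.949% of the 17492 coding genes with such a window. How many of the 54 have such a window is not given here. The peak of Birc2, which encodes the inhibitor of apoptosis protein cIAP1, was centred 38 bases from 1 of its RefSeq starts. The 238 bases before that start that the peak covers held none of the 6 patterns. It was also the nearest peak of the neighbouring paralogue Birc3, 10.6 kb away. Bcl2l15, a BCL2 family relative, had a peak centred 183 bases from a start. Its 250 bases before that start are shown as the other promoter under a peak among the BCL2 family genes read here, with its C/EBP pattern in capitals, beginning 119 bases before the start (plus strand, GRCm38.p6, chr3:103832446-103832695).

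Bcl2l15: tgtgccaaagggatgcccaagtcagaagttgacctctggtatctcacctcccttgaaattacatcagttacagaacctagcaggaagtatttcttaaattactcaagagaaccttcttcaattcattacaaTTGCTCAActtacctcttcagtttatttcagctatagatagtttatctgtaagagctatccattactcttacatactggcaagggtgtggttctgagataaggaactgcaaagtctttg

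The other genes of this list with a peak inside were Foxo1, Foxo3, Apaf1, Vdac1 and Naip2. Foxo1 encodes a transcription factor that AKT restrains, and it held 2 peaks, the nearer 18.1 kb from a gene end. Foxo3, its relative and an activator of Bcl2l11 transcription, held 1 peak 31.3 kb from an end. Apaf1, the scaffold of the apoptosome, held 1 peak 0.670 kb from an end, which was 0.664 kb from Ikbip. Vdac1, an outer membrane channel, held 1 peak 4.31 kb from an end. Naip2 held 1 peak 8.85 kb from an end. The Naip genes are close copies of each other, so the placing of reads among them is uncertain.

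Peaks lay 3.03 kb outside Bcl2l2, which encodes the anti-apoptotic BCL-W, and 3.34 kb outside Htra2, a mitochondrial protease released in apoptosis. Both were closer to another gene, Pabpn1 at 0.254 kb and Dqx1 at 0.159 kb. Htra2 had 6 peaks in its window, among 15 other coding genes. Farther from their genes were the nearest peaks of Birc6 at 7.72 kb, Bcl2l10, an anti-apoptotic relative, at 10.8 kb, Bcl2l14 at 22.6 kb and Akt1, the kinase that phosphorylates BAD, at 24.2 kb. Of these last 4 peaks, that of Bcl2l10 alone had the listed gene as the nearest coding gene.

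**Figure D4:**
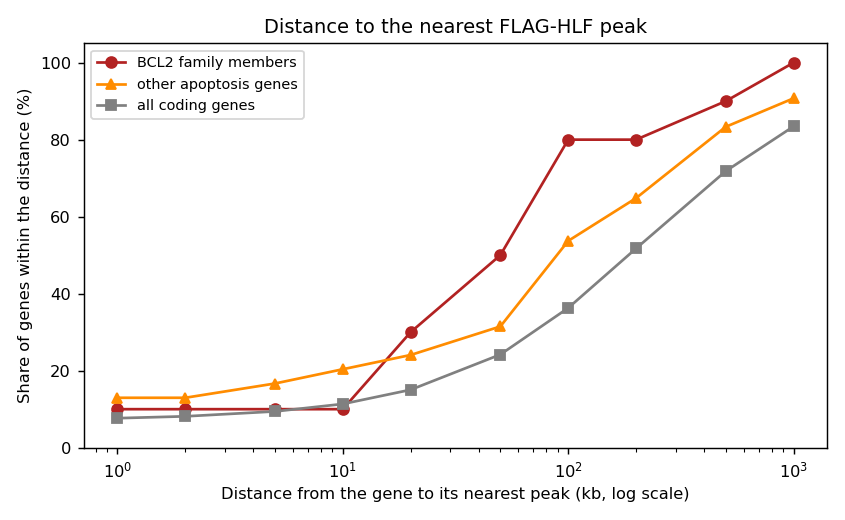
Share of genes (%) whose nearest peak lies inside the gene or within a given distance (kb, log scale), for the 10 members, the 54 other apoptosis genes and all 21900 coding genes. At 10 kb the shares are 10%, 20.4% and 11.4%, and at 100 kb they are 80%, 53.7% and 36.3%.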

How the data were processed

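Anti-FLAG chromatin immunoprecipitation with sequencing gave 1 FLAG-HLF and 1 GFP control library. Per the submitters' processing notes, Bowtie2, bedtools and MACS2 were used with mm10 (GRCm38), but no version or role is stated. Not given in the sources used here are the peak threshold, the origin of the width of 400 bases and any use of the GFP library. The authors deposited chromosome, start and end for 3153 peaks of the FLAG-HLF library.

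The centre of a peak was its file start plus 200. Positions are counted from 1. Gene bounds came from RefSeq (GRCm38.p6, 49997 genes, 21900 of them coding), and all 10 members and 54 further genes were matched by symbol. Starts and promoter sequences came from a RefSeq table of 32851 windows, which held 9 members and 17492 coding genes. Distances run to gene bounds unless a start is named. Each peak was also given to 1 coding gene, that with the closest end.

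The members and gene lists were chosen with earlier results of these data known. All members, the neighbours of each counted peak, and of the further genes those with a peak inside or within 5 kb and the next 6 were named, except 1 that is not reported here. TTACGT and the 10 kb summaries, gene-density classes and promoter overlaps were added after seeing the data. No test was run. The distance count was tested on simulated data. Alternatives changed the distance limit, the point of the peak, the lines used and the gene assignment. Python 3.11.15, numpy 2.4.6, pandas 2.3.3 and matplotlib 3.10.9 were used.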

Additional observations from a re-analysis of the deposited data

How the results depend on the processing

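Of 18 alternative values for 4 counts, 9 stayed within 1.5 times the value reported. With the limit beyond the gene ends at 5, 20 and 50 kb in place of 100 kb, 1, 3 and 5 members had a peak, against 9.42%, 15% and 24.2% of coding genes, and 2, 6 and 9 peaks were counted. A narrower limit searches fewer bases by construction. At 20 kb, 13 of the 54 further apoptosis genes had a peak. At 200 kb, 8 members had a peak, against 51.7% of coding genes. With only the first 1576 lines of the list, 5 members had a peak, against 22% of coding genes. With noncoding genes and pseudogenes able to take a peak, 1 member, Bmf, was given peaks in place of 3. Bcl2 and Bcl2l11 then lost theirs to Gm41928 and Gm23101. Bmf was given peaks under every assignment tried, Bcl2l11 not when a holding gene came first, and Bcl2 not when only starts counted. The share of coding genes given a peak under these other assignments is not given here, so these counts only describe the members. No paired analysis was possible because there is 1 library per arm. The list has no counts or heights, so depth and detection limits are unknown.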

Other observations

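Between 100 and 200 kb from a member lay 3 further peaks, named after their values were seen. One lay 171.7 kb downstream of Bcl2l11 (chromosome 2, 128334062 to 128334461), inside Morrbid. Morrbid is a long noncoding RNA known in mouse myeloid cells to repress Bcl2l11 from the same chromosome. Bcl2l11 was the coding gene with the nearest end, and the nearer end of Morrbid was 35.6 kb from the peak. Another lay 153.1 kb downstream of Bmf and 1.14 kb from Gpr176. The third lay 156.8 kb upstream of Bax, inside Izumo1.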
